A study of Caenorhabditis elegans with 6 samples.

Results

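A group of 27 protein-coding genes on the autosomes of the nematode Caenorhabditis elegans was close to silent in the dissected wild-type gonad and had a low but steady level in the gonad of sin-3(tm1276) mutants. The group was chosen by its readout. A gene entered when its mean was under 0.3 counts per 1000000 gene-assigned reads (CPM) in the 3 wild-type libraries and its value was 0.8 CPM or more in each of the 3 mutant libraries. Of 46934 gene identifiers in the count tables, 17241 were autosomal protein-coding genes and 9218 of those were under the wild-type threshold. The 27 genes are thus 0.157% of the autosomal protein-coding genes and 0.293% of those under the wild-type threshold. Because the difference between the genotypes chose them, the levels of these 27 genes in the 2 genotypes are a description and carry no test.

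The study compared gonads of wild-type worms with gonads of worms carrying the sin-3 allele tm1276, and the labels give no other allele or treatment for either group. Each library came from 5 to 7 young adults taken 12 h after the L4 larval stage, whose gonads were cut at the elbow so that the distal arm was kept. Total RNA was depleted of ribosomal RNA, made into stranded libraries and read in single reads of 50 bases. Whether the 3 libraries of a genotype stem from independent cultures is not given, so that a p-value here measures the spread between these samples, which may be technical. The tissue is labelled germline, but the distal arm also carries somatic sheath cells, and in such bulk RNA fewer cells of a type and less RNA per cell cannot be told apart.

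SIN-3 is the worm member of the SIN3 family, large scaffold proteins that hold class I histone deacetylases together with DNA- and chromatin-binding proteins. SIN3 complexes remove acetyl groups from histone tails and are best known as repressors of transcription, although they are also found at active genes. In the C. elegans germline most genes used by muscle, epidermis, gut and neurons are kept silent by chromatin and RNA-based mechanisms while germ cells multiply and enter meiosis.

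Gene-assigned totals ran from 24491014 to 30634455 reads per library, so that 0.8 CPM stood for 19.6 to 24.5 reads, the most in the deepest library. Transcripts of sin-3 itself fell from 344.2 CPM ± 5.83 (SD, n = 3) in wild type to 190.3 CPM ± 7.51 (SD, n = 3) in mutants, and whether the remaining reads lie outside the part altered by tm1276 cannot be read from counts per gene. Over all 9787 genes tested with edgeR's quasi-likelihood test, 31.3% were called higher and 30.7% lower in the mutant after TMM scaling (trimmed mean of M values, which sets the bulk of genes level). Scaling by library totals shifts every log2 fold change by a median of 0.17 towards the mutant and gives 4446 genes higher and 1864 lower in place of 3065 and 3003. CPM values below are scaled by library totals, as the selection was, while log2 fold changes are after TMM scaling.

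Read against the data, "switched on" overstates what separates the genotypes for most of the 27 genes. As many as 24 of them had at least 1 read in every wild-type library, and only cng-2 and ptr-15 had 3 reads or fewer in each. Wild-type counts per library lay between 0 and 12 reads and mutant counts between 21 and 135. Mean levels ran from 0.0269 to 0.296 CPM in wild type, with a median over genes of 0.243, and from 0.846 to 4.38 CPM in the mutant, with a median of 1.19. The ratio of the means was 3.26 to 55.3, with a median of 4.54. In the mutant 21 genes stayed under 1.5 CPM and 8 under 1 CPM, so the group moved from near silence to a low level.

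**Figure D1:**
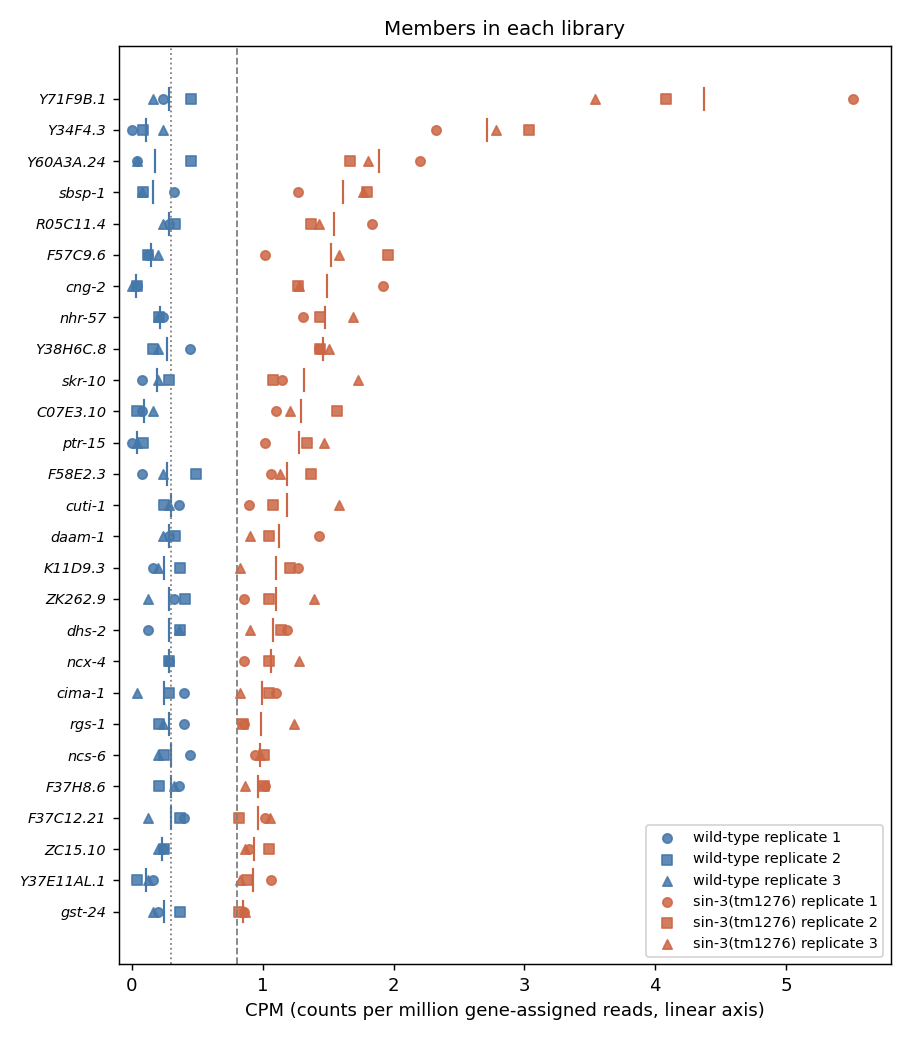
CPM of each of the 27 genes (rows) in the 3 wild-type libraries (blue) and the 3 sin-3(tm1276) libraries (orange) on a linear axis, with symbols for the replicates and a vertical tick for each mean. The dotted line is the wild-type threshold of 0.3 CPM for the mean and the dashed line the mutant threshold of 0.8 CPM; the highest single wild-type value was 0.490 CPM and the lowest single mutant value 0.816 CPM.

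Summed over the 27 genes, the level was 6.08, 6.77 and 4.89 CPM in wild-type replicates 1, 2 and 3, and 37.4, 37.4 and 37.3 CPM in the mutant replicates. The 3 mutant sums were nearly equal, and the selection itself required each mutant library to reach the threshold. Across genes the highest mutant value fell in replicate 1 for 10 genes, in replicate 2 for 7 and in replicate 3 for 10. The coefficient of variation between mutant libraries was 2.90% to 31% between genes, at counts where counting error alone is large.

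Among members linked by their families to nerve cells and calcium or G protein signalling were cng-2, rgs-1, ncs-6 and ncx-4. The cng-2 gene (chromosome IV, 2037191 to 2043549, plus strand, WBcel235) encodes a cyclic nucleotide-gated channel subunit, of a family whose better known worm members carry signals in sensory neurons. It had 1, 1 and 0 reads in wild-type replicates 1 to 3 and 47, 39 and 34 reads in the mutant replicates. The genotypes were far apart, with 1.49 CPM ± 0.371 (SD, n = 3) in the mutant. With 2 wild-type reads in all, the pooled ratio of 54.7 has a 95% counting interval of 14.8 to 457 (Clopper-Pearson).

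The other genes of that kind had smaller ratios and wild-type reads in every library. A regulator of G protein signalling, rgs-1, which in worms shortens Gα signals in neurons, had 10, 5 and 6 wild-type and 21, 26 and 33 mutant reads. Counts of ncs-6, a member of the neuronal calcium sensor family, were 11, 6 and 5 in wild type and 23, 31 and 26 in the mutant. For ncx-4, a sodium/calcium exchanger, they were 7, 7 and 7 in wild type and 21, 32 and 34 in the mutant. The ratio of mean CPM was 3.49 for rgs-1, 3.31 for ncs-6 and 3.76 for ncx-4, and the 3 genes lay near the lower end of the group.

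Another 4 members have family links to epithelia, membranes or the cell cortex: ptr-15, cuti-1, cima-1 and daam-1. The product of ptr-15 (chromosome V, 6966396 to 6970000, minus strand) is a Patched-related membrane protein, of a family known in worms for roles in moulting and epidermal growth. Its counts were 0, 2 and 1 in wild type and 25, 41 and 39 in the mutant, a pooled ratio of 31.9 with a 95% counting interval of 10.6 to 157. This was the second member, with cng-2, that was nearly without reads in wild type.

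A gene named for cuticle and epithelial integrity, cuti-1 (chromosome I, 6404587 to 6405705, plus strand), had 9, 6 and 7 wild-type and 22, 33 and 42 mutant reads. The transporter-like gene cima-1, which acts in worm epidermal cells to keep synapses in place, had 10, 7 and 1 wild-type and 27, 32 and 22 mutant reads. Reads of daam-1, a formin of the DAAM family that assembles actin filaments, numbered 7, 8 and 6 in wild type and 35, 32 and 24 in the mutant. The 3 genes had ratios of 4.02, 4.10 and 3.99, at wild-type levels of 0.295, 0.242 and 0.282 CPM. Exons of cima-1 share 91 bases with those of nrde-4 on the opposite strand, a nuclear RNA interference gene that had 162.8 CPM in the control and 126.3 CPM in the mutant. The strand setting of the authors' counting is not given in the sources used here, and reads over those bases could come from either gene if strand was not used.

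The nuclear hormone receptor gene nhr-57 (chromosome V, 4131889 to 4135102, plus strand) is widely used in worms as a readout of the hypoxia-inducible factor HIF-1, which raises it when oxygen is low. It had 6, 5 and 5 reads in wild type and 32, 44 and 45 in the mutant, or 0.215 CPM ± 0.0219 (SD, n = 3) and 1.48 CPM ± 0.197 (SD, n = 3). Both genotypes were tight, and the ratio was 6.88.

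Enzymes and protein turnover were represented by skr-10, dhs-2 and gst-24. The Skp1-related gene skr-10 (chromosome IV, 15946807 to 15947385, plus strand), whose family members link F-box proteins to cullin ubiquitin ligases, had 2, 7 and 5 wild-type and 28, 33 and 46 mutant reads. It has close copies among the skr genes, so its counts are uncertain in as far as reads of 50 bases fit more than 1 of them. Counts of dhs-2, a short-chain dehydrogenase, were 3, 9 and 9 in wild type and 29, 35 and 24 in the mutant. The glutathione S-transferase gene gst-24, of a family that conjugates reactive compounds to glutathione, had 5, 9 and 4 wild-type and 21, 25 and 23 mutant reads. Its mean of 0.846 CPM was the lowest mutant mean of the group.

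No established role is given here for sbsp-1 and 14 genes that carry only sequence names. They included the members of highest mutant CPM and also some of the lowest. Mutant means of F37H8.6, F37C12.21, ZC15.10 and Y37E11AL.1 were 0.966, 0.964, 0.936 and 0.924 CPM. Y71F9B.1 (chromosome I, 2774912 to 2775421, plus strand) had 6, 11 and 4 reads in wild type and 135, 125 and 94 in the mutant, or 4.38 CPM ± 1.02 (SD, n = 3) in the mutant. This short gene lies within an intron of sop-3, a Mediator subunit gene on the opposite strand, and shares no exon base with it. The level of sop-3 was 149.1 CPM in wild type and, in the mutant, 151.8 CPM. After TMM scaling sop-3 was called lower (log2 -0.14, edgeR quasi-likelihood adjusted p = 0.0050). The part of reads from the sop-3 intron in the counts of Y71F9B.1 was not tested.

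Y34F4.3 (chromosome III, 1012166 to 1016180, minus strand) had 0, 2 and 6 wild-type and 57, 93 and 74 mutant reads. For Y60A3A.24 (chromosome V, 19978721 to 19981882, minus strand) the counts were 1, 11 and 1 in wild type and 54, 51 and 48 in the mutant. Neither overlaps another annotated gene, and their mutant means were 2.72 CPM ± 0.359 and 1.89 CPM ± 0.280 (SD, n = 3). Wild-type replicate 2 held nearly all wild-type reads of Y60A3A.24.

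Reads of sbsp-1 (chromosome III, 10832936 to 10839451, plus strand) numbered 8, 2 and 2 in wild type and 31, 55 and 47 in the mutant. F57C9.6 (chromosome I, 4821929 to 4824995, plus strand) had 3, 3 and 5 wild-type and 25, 60 and 42 mutant reads, the widest relative spread among mutant libraries of any member. It shares 92 exon bases with tofu-4, a piRNA pathway gene on the opposite strand that had 49.4 CPM in wild type against 45.4 CPM in the mutant. C07E3.10 (chromosome II, 10346375 to 10347008, plus strand) had 2, 1 and 4 wild-type and 27, 48 and 32 mutant reads, a ratio of 13.8. Y38H6C.8 (chromosome V, 20513961 to 20515732, plus strand) had the most even mutant levels, with 35, 44 and 40 reads after 11, 4 and 5 in wild type.

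The remaining sequence-named members were R05C11.4, F58E2.3, K11D9.3, ZK262.9, F37H8.6, F37C12.21, ZC15.10 and Y37E11AL.1. R05C11.4 (chromosome IV, 2051495 to 2057079, plus strand) had 7, 8 and 6 wild-type and 45, 42 and 38 mutant reads. It lies 7946 bases from cng-2 on the same strand, and this was the single pair of members within 20 kb of each other. Y37E11AL.1 had 4, 1 and 3 wild-type and 26, 27 and 22 mutant reads, a ratio of 8.63. Ratios of the other 6 in this set were lower, from 3.26 for F37C12.21 to 4.54 for K11D9.3.

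On a scale of CPM per kilobase of exon, which allows levels of different genes to be compared, mutant levels ran from 9.56 for Y71F9B.1 through 3.84 for Y34F4.3, 2.62 for C07E3.10 and 2.28 for skr-10 down to 0.268 for daam-1. Of all autosomal protein-coding genes, 29.5% had a higher mean level in the mutant on this scale than Y71F9B.1 and 48.2% a higher one than daam-1. The other members lay between these shares, so even the lowest of the 27 was near the middle of all autosomal protein-coding genes, of which many had few or no reads.

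Values near the thresholds show no gap. Just inside the wild-type threshold were F37C12.21 at 0.296, cuti-1 at 0.295 and ncs-6 at 0.295 CPM, and just outside were gpdh-1 at 0.309, Y71G12B.5 at 0.322 and nhr-58 at 0.322 CPM. The lowest mutant values inside were 0.816 CPM for gst-24, 0.816 CPM for F37C12.21 and 0.828 CPM for Y37E11AL.1. Just under the mutant threshold lay Y41D4A.7 at 0.790, F48E8.8 at 0.783 and K07A12.8 at 0.753 CPM. The number of members depends on the scaling as well: 18 of the 27 genes met the thresholds with TMM-scaled CPM and 12 with CPM from DESeq2's size factors.

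**Figure D2:**
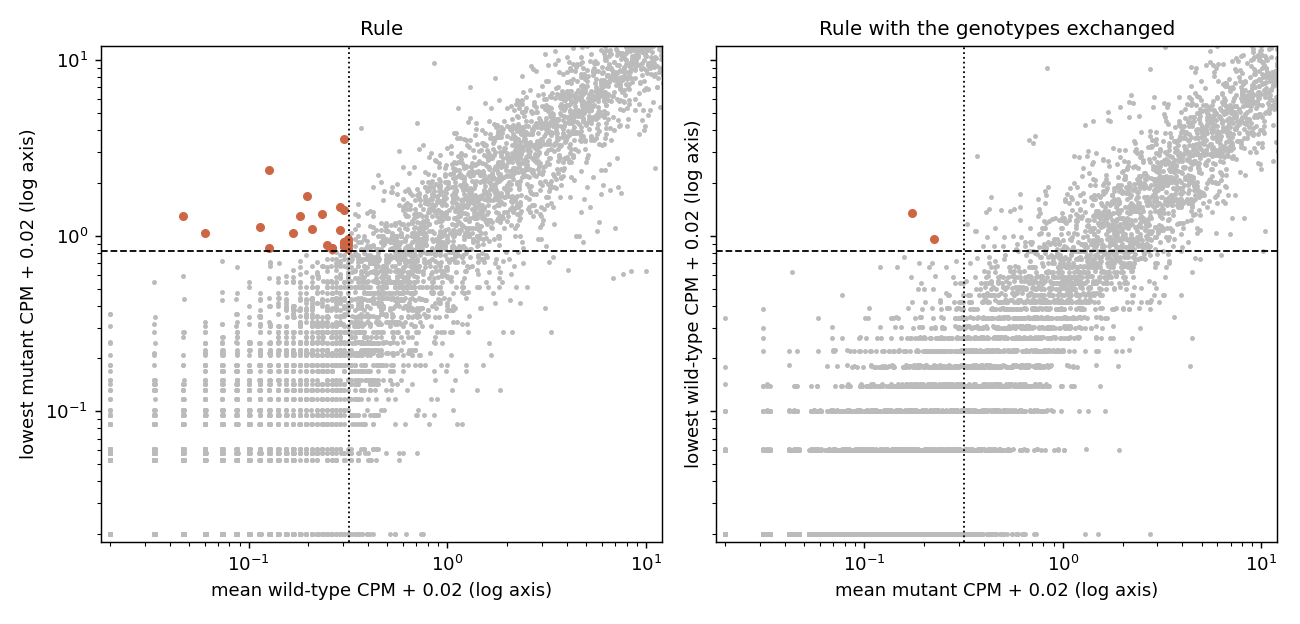
Autosomal protein-coding genes by mean CPM in the genotype that had to be low (horizontal) and lowest CPM in the genotype that had to be high (vertical), both on log axes with a small offset for zeros and cut at the upper end, for the selection as made (left) and with the genotypes exchanged (right). Dotted and dashed lines mark the thresholds of 0.3 and 0.8 CPM; 27 genes (orange) met them in the mutant direction and 2 in the other, and the genes on either side of the lines form 1 continuous cloud.

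With the genotypes exchanged, the same thresholds took 2 autosomal protein-coding genes, 0.0116% of them, in place of 27. Leaving out a library gave 2 to 8 genes in that direction, with 8 when wild-type replicate 1 was left out, and 20 to 41 in the mutant direction, with 41 when mutant replicate 2 was left out. Under TMM scaling the counts were 3 and 18, and under DESeq2 size factors 3 and 12. The 2 genes were T02B11.3, with 57, 46 and 33 reads in wild type and 3, 7 and 3 in the mutant, and fipr-2, with 24, 23 and 30 and then 9, 4 and 3. On the X chromosome 6 of 2730 protein-coding genes met the thresholds in the mutant direction, 0.220% against 0.157% of the autosomal genes: C10E2.1, F01E11.3, F59F5.7, ace-1, rif-1.2 and sod-3. Either other scaling left 5 X-linked genes, and leaving out mutant replicate 2 gave 10. Among them ace-1 encodes an acetylcholinesterase and sod-3 a mitochondrial superoxide dismutase.

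To see how the levels hold in a library that took no part in the choice, the thresholds were applied to 5 libraries and the sixth was read out. Genes chosen without mutant replicate 1, 2 or 3 numbered 34, 41 and 32, and in each case 27 of them also reached 0.8 CPM in the library left out, since those are the genes chosen with all libraries. Of the same genes 34 of 34, 39 of 41 and 32 of 32 lay above all their wild-type values there, with median levels of 1.02, 1.04 and 1.17 CPM. Genes chosen without wild-type replicate 1, 2 or 3 numbered 27, 25 and 20. In the wild-type library left out 15, 12 and 15 of them were under 0.3 CPM and all were below every mutant value, with medians of 0.28, 0.33 and 0.20 CPM. The thresholds in the other 5 libraries fix much of that order, so it carries no test. Among all autosomal protein-coding genes tested, 45.2% had every mutant CPM above every wild-type CPM. Wild-type levels in the left-out library often passed 0.3 CPM.

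**Figure D3:**
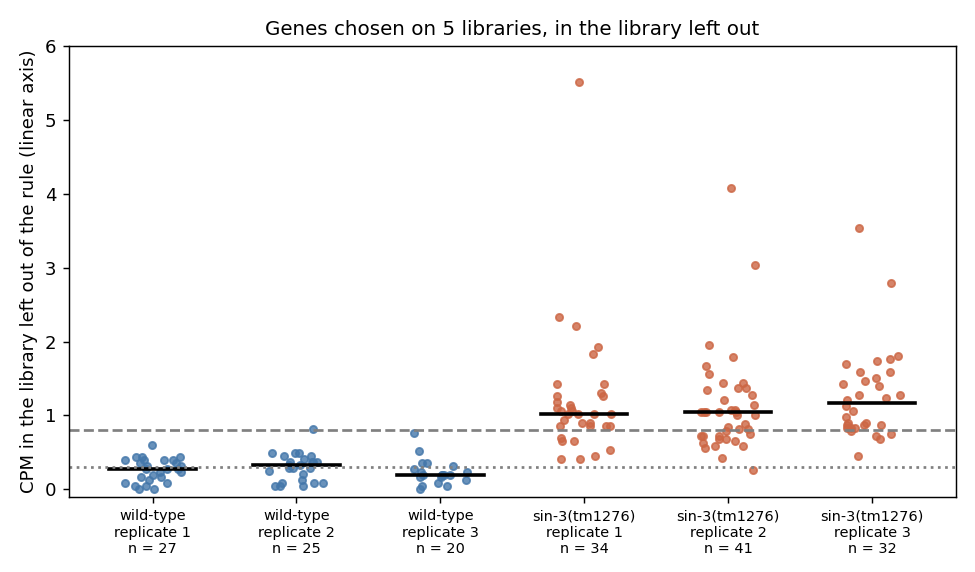
CPM in the left-out library (linear axis) for genes chosen with the other 5 libraries, by library; points are genes, bars are medians and n is the number chosen. Medians in left-out wild-type libraries were 0.28, 0.33 and 0.20 CPM and in left-out mutant libraries 1.02, 1.04 and 1.17 CPM, with part of the genes between the dotted (0.3) and dashed (0.8) lines.

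All 27 genes passed the low-count filter of the fit across all genes, which their mutant counts alone ensured, and all were called higher by edgeR's quasi-likelihood test. Among all 7987 autosomal protein-coding genes tested, 27.3% were called higher, 35.5% were called lower, and 45.2% had every mutant CPM above every wild-type CPM; nothing is read from the members' count, because the same contrast chose them. In the authors' deposited table all 27 genes were present with an adjusted p under 0.05 and log2 fold changes of 0.96 to 5.14, with a median of 1.66. That table compares the same genotypes in the same series, so it is no independent check of genes chosen by this contrast. The share of all genes under 0.05 in the authors' table was not taken, and the shares above belong to the edgeR fit. For cng-2 the authors' deposited table gives a log2 fold change of 5.14 with a standard error of 1.10, and for gst-24 it gives 0.96 with a standard error of 0.78.

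In features that the rule did not name, the 27 genes were spread over the autosomes, with a longer median span than other genes and a larger share on chromosome arms. They lay on all 5 autosomes, with 5, 4, 5, 6 and 7 genes on chromosomes I to V. The median exon length was 1367 bases against 1144 bases for all autosomal protein-coding genes, and the median number of exons was 5 in both. The thresholds were in CPM that is not scaled by length, so exon length, and span with it, is not independent of the choice. The median span from gene start to gene end was 2849 bases for the members, 1964 bases for all autosomal protein-coding genes and 1863 bases for the other genes that were under the wild-type threshold and had a read. Of the 27, 19 (70.4%) lay in the outer 30% at either end of a chromosome, against 54.6% of all autosomal protein-coding genes and 56.4% of the other genes that were under the wild-type threshold and had a read. Named genes made up 48.1% of the members, 55.4% of all and 46.9% of the other genes that were under the wild-type threshold and had a read. These shares are descriptions of a small group, without a test.

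An overlap with another annotated gene was found for 12 members (44.4%), against 38.4% of all autosomal protein-coding genes, and 15 members overlapped none. The partner lay on the opposite strand for 9 members and on the same strand for 3. Most partners were themselves nearly silent, such as ZK262.8, which shares 425 exon bases on the same strand with ZK262.9 and had 0.0405 CPM in the control and 0.130 CPM in the mutant. Partners with a sizeable level in both genotypes were sop-3, tofu-4, nrde-4 and anr-35, an antisense RNA gene that shares 198 exon bases with F37H8.6 and had 6.79 CPM in wild type and, in the mutant, 8.14 CPM. The part of such shared bases in the members' counts was not tested.

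Genes next to the members gave a measure that the choice did not use. Within 5 kb of a member lay 66 other protein-coding genes, of which 30 could be tested: 8 were called higher and 10 lower by edgeR's quasi-likelihood test, or 26.7% and 33.3%, against 27.3% and 35.5% of all autosomal protein-coding genes tested. Their median log2 fold change was 0.07, against -0.04 for all autosomal protein-coding genes. The count depends on scaling, with 14 higher and 4 lower under library totals.

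Single neighbours changed in either direction. The closest gene to C07E3.10, stip-1 on the opposite strand at a gap of 75 bases, had 109.2 CPM in wild type against 107.0 CPM in the mutant and was called lower after TMM scaling (log2 -0.20, edgeR quasi-likelihood adjusted p = 0.00022), and pro-2 at 1262 bases was not called. Farther off, at 3747 bases and on the same strand, C07E3.9 had 5.60, 3.43 and 3.89 CPM in wild type and 13.96, 13.61 and 14.75 CPM in the mutant. Its genotypes did not overlap, and the log2 fold change was 1.54 ± 0.15 (SE, edgeR quasi-likelihood adjusted p = 1.15e-06). The glutathione S-transferase gene gst-20, 618 bases from gst-24, went from 1.37 CPM ± 0.0828 to 2.72 CPM ± 0.607 (SD, n = 3; log2 0.82 ± 0.23 SE, edgeR adjusted p = 0.0058). On the other side of gst-24, gst-15 had 0.469 CPM in wild type against 0.687 CPM in the mutant and was not called. The closest gene to cng-2 and that to R05C11.4, Y76B12C.9 and R05C11.2, had almost no reads in either genotype.

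Relatives of the named members, taken as autosomal protein-coding genes with the same letters before the hyphen, rose more often than they fell. Of 360 such genes 140 could be tested, and 65 were called higher and 15 lower by edgeR's quasi-likelihood test, or 46.4% and 10.7%. Among all autosomal protein-coding genes tested, these shares were 27.3% and 35.5%. The median log2 fold change of the relatives was 0.40. As a second measure, chosen after the data were seen, 1041 tested autosomal protein-coding genes had a mean level between that of the lowest member and 1.5 CPM and were not members. Of these, 26.6% were called higher and 9.32% lower, with a median log2 fold change of 0.30. DESeq2's Wald test called 42 relatives higher.

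The nuclear hormone receptor genes made up most of that count. Beside nhr-57, 245 autosomal nhr genes were in the tables; 43 of the 83 tested were called higher (51.8%) and 3 lower, namely nhr-23, nhr-61 and nhr-66, with a median log2 fold change of 0.53. With library totals 52 were higher and 2 lower, and with DESeq2's Wald test 28 were higher and 3 lower. Among the 202 nhr relatives with any read, the mutant mean was above the wild-type mean in 157, against 62.3% of all autosomal protein-coding genes with a read. The direction of nhr-66 was set by scaling, since its CPM was 95.1 in wild type and 99.1 in the mutant.

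Several nhr genes that were not members also rose, from a range of wild-type levels. From 11.4 CPM ± 1.08 in wild type nhr-97 rose to 25.0 CPM ± 2.31 in the mutant (SD, n = 3; log2 0.97 ± 0.10 SE, edgeR adjusted p = 9.74e-07). Levels of nhr-204 were 0.403 CPM ± 0.184 and 1.96 CPM ± 0.128 (log2 2.10 ± 0.32 SE, edgeR adjusted p = 5.02e-05). The steepest were nhr-116, from 0.108 to 0.773 CPM, and nhr-123, from 0.0670 to 0.503 CPM, which fell short of the mutant threshold of 0.8 CPM. In the opposite direction nhr-61 fell from 5.99 CPM ± 0.573 to 3.33 CPM ± 0.0629 (log2 -1.01 ± 0.14 SE, edgeR adjusted p = 2.80e-05).

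Without the nhr genes, 22 of 57 tested relatives were called higher (38.6%) and 12 lower. This and each family count below stand against 27.3% of all autosomal protein-coding genes tested that were called higher and 35.5% called lower. Among 18 gst genes 8 were higher and 2 lower. The largest rise in that family was in gst-4, a widely used reporter of oxidative stress, from 1.52 CPM ± 0.674 to 6.22 CPM ± 0.564 (SD, n = 3; log2 1.86, edgeR adjusted p = 5.59e-05), while gst-43 fell from 4.70 to 1.66 CPM (log2 -1.66). Short-chain dehydrogenases of the dhs family split into 6 higher and 4 lower of 14, with dhs-21 rising from 1.26 to 4.88 CPM and dhs-12 falling from 98.7 to 41.6 CPM.

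The skr family showed a similar division, with 4 of 11 tested genes higher (36.4%, against 27.3% of all autosomal protein-coding genes tested) and 3 lower. Its abundant members skr-1 and skr-2 fell, from 104.2 to 59.8 CPM and from 165.8 to 118.9 CPM, whereas skr-3, skr-7, skr-13 and skr-14 rose. The close skr-10 relative skr-7 had 2.43 CPM ± 0.148 in wild type against 3.79 CPM ± 0.0599 with the mutation (SD, n = 3). Of 6 tested ptr genes 3 were higher and 1 lower. For the signalling members few relatives could be tested. The only tested ncs gene, ncs-2, rose from 6.09 to 9.21 CPM (log2 0.43, edgeR adjusted p = 0.0058), 1 of 2 tested rgs genes, rgs-5, fell from 11.8 to 9.45 CPM (log2 -0.48), and 1 of 4 tested ncx genes, ncx-2, fell from 2.09 to 0.406 CPM (log2 -2.49). The single cng gene tested was not called. The counts for skr and ptr genes ranged from 1 to 4 and from 1 to 5 when a library was left out or another tool was used; without wild-type replicate 2 they were 1 and 5, without wild-type replicate 1 they were 3 and 1, and without mutant replicate 2 they were 1 and 2.

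**Figure D4:**
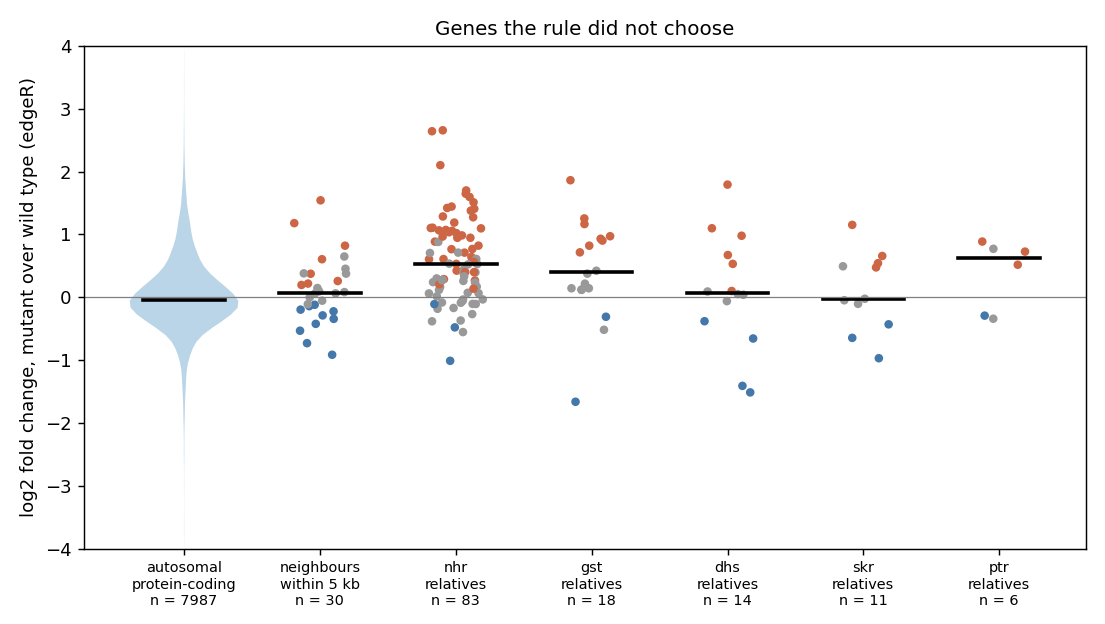
Log2 fold change, mutant over wild type, after TMM scaling for all tested autosomal protein-coding genes (violin), neighbours within 5 kb of a member and relatives by name; orange points were called higher, blue lower and grey neither by edgeR, and bars are medians. The 30 neighbours centre on 0.07 and the 83 nhr genes on 0.53, against -0.04 for all autosomal protein-coding genes.

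Because nhr-57 is known as a HIF-1 target, the levels of other genes of that pathway were set beside it, a list drawn up after the members were known. Of the 7 other genes 4 were called higher and 3 were not called by edgeR's quasi-likelihood test, where 31.3% of all genes tested were called higher. The cyanoalanine synthase gene cysl-2 had 16.7, 14.5 and 14.4 CPM in wild type and 39.4, 35.4 and 33.5 CPM in the mutant (log2 1.08 ± 0.08 SE, adjusted p = 9.31e-08). The prolyl 4-hydroxylase subunit gene phy-2 had 1.04, 1.88 and 1.48 CPM in wild type and 3.06, 4.44 and 3.12 CPM in the mutant (log2 1.11 ± 0.24 SE, adjusted p = 0.0011). In both genes the genotypes did not overlap.

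Smaller rises were seen for egl-9, the prolyl hydroxylase that marks HIF-1 for degradation, from 5.97 to 9.53 CPM (log2 0.51), and for rhy-1, a regulator of HIF-1, from 2.30 to 3.46 CPM (log2 0.43). The edgeR adjusted p was 0.0025 for egl-9 and 0.049 for rhy-1. The transcript of hif-1 itself was not called (log2 0.21 ± 0.10 SE, edgeR adjusted p = 0.077), nor were those of vhl-1 and cysl-1. Under library totals all 8 genes were called higher, as were 4446 of the 9787 genes tested. For nhr-57, which is among the 8, the same contrast had chosen it.

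**Figure D5:**
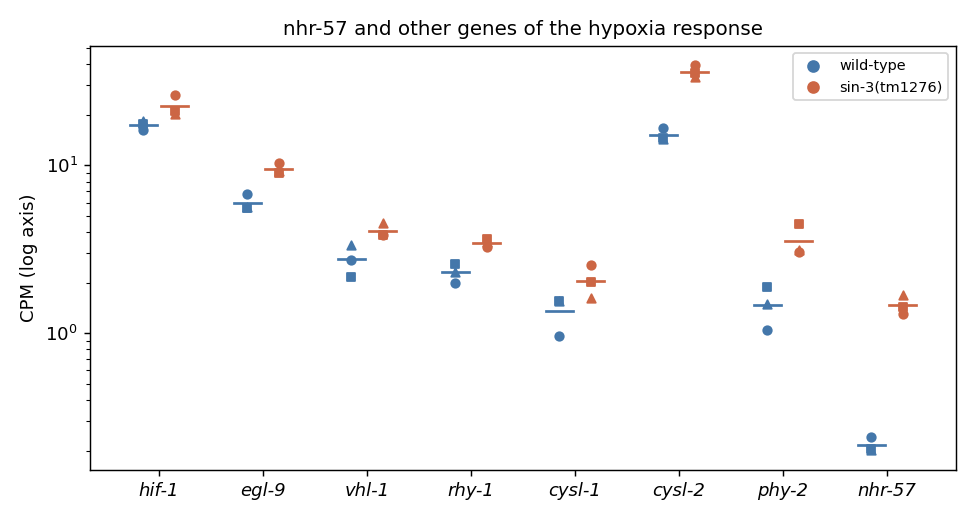
CPM on a log axis of hif-1 and 7 other genes of its pathway, regulators of HIF-1 and nhr-57 included, in 3 wild-type (blue) and 3 sin-3(tm1276) libraries (orange). Symbols are replicates and bars are means. On this scale by library totals mutant values lie above wild-type values in all 8 genes, and hif-1, vhl-1 and cysl-1 were not called. For nhr-57 the thresholds that chose it set that separation and favoured a wide ratio.

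To place the members among tissues, lists of cell type markers and stress genes were read in the same fit, and no list other than the hypoxia list contained a member. Each count below stands against 31.3% of all genes tested that were called higher and 30.7% that were called lower. Of 16 tested markers of the somatic gonad and sheath 11 were called higher and 5, pat-3 among them, were not called by edgeR. Their summed level was 511.8 to 520.5 CPM in wild type and 874.4 to 970.0 CPM in the mutant. Defining sheath genes moved with it, lim-7 from 2.28 to 6.55 CPM and inx-8 from 49.6 to 82.2 CPM. Of 8 tested spermatheca genes 5 were higher and 3 not called, and without wild-type replicate 3 the count was 3 higher and 1 lower. The part of more sheath RNA in the members' levels was not tested.

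Markers of tissues outside the gonad, and sperm genes, showed no such count. Neuronal markers split into 4 higher and 4 lower of 13 tested, with summed levels of 89.6 to 94.8 CPM in wild type and 81.9 to 93.4 CPM in the mutant. Of these sums snb-1 alone gave 61.9 to 66.9 CPM in wild type and 45.5 to 48.1 CPM in the mutant. It was called lower, so the sums largely follow this single gene. The other genes called lower were egl-3, egl-21 and ida-1, and those called higher were unc-18, unc-64, unc-119 and unc-31. A summed level without snb-1 was not taken. For hypodermis and cuticle 1 of 6 was higher and 1 lower, and the sums were 248.1 to 401.5 CPM and 258.1 to 289.3 CPM. Intestine had 1 of 17 higher and 16 not called, body wall muscle 1 of 15 higher and 14 not called, pharynx 1 of 5 higher and 3 lower, the excretory system 2 of 4 higher and 2 lower, and the single coelomocyte marker tested was not called. Of 26 sperm gene identifiers 19 were under 0.3 CPM in all 6 libraries. Among the 5 tested 1 was higher, swm-1, and 2 lower. These counts rest on wild-type replicate 1: without it 7 intestine, 5 body wall muscle, 5 pharynx and 3 hypodermis and cuticle genes were called lower. Neuronal markers called higher numbered 2 without wild-type replicate 2.

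Stress and embryonic lists were small, and many of their genes had too few reads to be tested. Under 0.3 CPM in all 6 libraries were 17 of 26 early zygotic and 10 of 20 detoxification genes. The same held for 4 of 15 pathogen response and 4 of 10 cytosolic heat shock genes. The counts below cover the tested genes only. Genes of the intracellular pathogen response were higher in 4 of 7 tested, early zygotic genes in 4 of 7 and detoxification genes in 4 of 8, with the others not called, although without wild-type replicate 1 the detoxification list had 2 higher and 1 lower; cytosolic heat shock genes were higher in 1 of 5 and lower in 3. Of the 4 detoxification genes called, 3 were gst-4, gst-30 and gst-10, which are also counted above as relatives of gst-24, and skr-3, 1 of the 4 pathogen response genes called higher, is also counted as a relative of skr-10.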

How the data were processed

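Counts of reads per gene in 6 libraries were used as the authors deposited them, as whole numbers without normalization. The submitters' processing notes name STAR 2.7.3a, fastp 0.20.1, DESeq2 1.36.0 and HTSeq 0.7.2 without saying what each did. The genome build, gene models and strand option behind the counts were not given in the sources used here. The authors' deposited comparison table holds log2 fold changes with standard errors and adjusted p-values, per the file headers.

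Lines that name no gene (8.73% to 10.9% of counted reads per library) were left out of totals, which ran from 24491014 to 30634455. Of 46934 identifiers 46923 matched Ensembl release 115 of WBcel235, the source of names, gene types and coordinates. CPM is the count over that total; a count of 0 allows 3 counts, or 0.0979 to 0.122 CPM, and floors and counting intervals cover counting error only. Tests on these counts used edgeR 4.0.16 in R 4.3.3 (filterByExpr, TMM scaling, robust quasi-likelihood F test on genotype, Benjamini-Hochberg adjustment over 9787 genes, threshold 0.05); steps were tested on simulated data. Alternatives were DESeq2 1.42.0, library totals, other filters, a replicate block, leaving out each library and other thresholds.

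Members and gene lists were chosen with earlier results of these data known. The rule for named genes took sin-3, members by level, level per kilobase, difference, closeness to another member and closeness to the thresholds, and the 2 list genes of smallest p; other members, relatives, neighbours and partners were named after their values were seen, as were the hypoxia list (after the members) and the genes of like level. Promoter and protein sequences were not analysed here.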

Additional observations from a re-analysis of the deposited data

How the results depend on the processing

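All 27 members were called higher by edgeR and by DESeq2, with library totals, without a filter and with any library left out. With a filter of mean CPM of 1 or more only 3 members remained to be tested, and all 3 were called. The members' log2 fold changes kept their direction and call in 273 alternative values. Because the same contrast chose the members, their calls and directions were largely set in advance and carry no test. In the main fit 27.3% of all autosomal protein-coding genes tested were called higher. The number of members was 12 with DESeq2's size factors, 9 with a wild-type mean under 0.2 CPM, 92 under 0.5, 10 with each wild-type library under 0.3, 105 with 0.5 CPM or more in each mutant library, 3 with 1.5 or more, 15 without members that overlap another gene (added after the data were seen), and 20 to 41 with a library left out, the most without mutant replicate 2. X-linked genes meeting the thresholds numbered 2 and 36 with wild-type means under 0.2 and 0.5 CPM, 35 and 0 with 0.5 and 1.5 CPM or more, and 6 to 10 with a library left out. In the reversed direction these numbers were 1, 16, 18 and 0, with 1 for each library under 0.3 CPM and 2 to 8 with a library left out, the most without wild-type replicate 1. The members' mean summed mutant level of 37.4 CPM was 35.3 with TMM scaling and 25.3 without the 5 highest members.

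Genes called lower were 1864 with library totals; neighbours were then 14 higher and 4 lower. Neighbours called higher were 16 within 10 kb and 4 beside members that overlap no other gene (added after the data were seen). Relatives called higher were 42 with DESeq2 and 22 without the nhr genes (added), and nhr genes called higher were 28 with DESeq2 and 27 with mean CPM of 1 or more. Same-numbered samples of the 2 genotypes did not deviate together (correlations -0.249, -0.0677 and -0.102). With 3 samples per genotype, such correlations cannot settle whether the numbers pair the samples. A fit with a replicate block called 27 members, 8 neighbours and 61 relatives higher. The cause of these shifts was not tested beyond what each setting changes by construction. Depth limits the precision of single members, since all but 2 had 60 or fewer reads in each mutant library. The planned search for promoter motifs, promoter GC content and protein length was not run.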

Other observations

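Beyond the protein-coding members, the same thresholds took 32 autosomal genes of any type, of 40867 such identifiers, against 7 with the genotypes exchanged. Among the X-linked genes that met them, rif-1.2 had the largest difference, with 2, 3 and 1 wild-type and 40, 45 and 38 mutant reads, and ace-1 had 9, 9 and 4 wild-type and 40, 44 and 39 mutant reads. The genotypes did not overlap in either gene, and as for the autosomal members the thresholds themselves set that separation.

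Of the 9218 autosomal protein-coding genes under the wild-type threshold, 3354 had no read in any of the 6 libraries, and in 3764 the mutant mean was above the wild-type mean. The 27 members are those in which every mutant library also reached 0.8 CPM.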
